A study of Ovis aries with 16 samples.

Results

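The miR-10, miR-99/100 and miR-125 families were followed in the serum of sheep and in extracellular vesicles (EVs, membrane-bound particles that cells release) isolated from serum. Members were the rows of the count table named miR-10a-5p, miR-10b-5p, miR-99a-5p, miR-99b-5p, miR-100-5p, miR-125a-5p and miR-125b-5p. They were chosen by name, with earlier results of these data known. All 7 were present among 1105 names. The 16 small RNA libraries formed 4 groups: EVs after surgery (n = 3), EVs before surgery (n = 5), serum after surgery (n = 3) and serum before surgery (n = 5). The animals were adolescent sheep with a normal heart of both ventricles, and the surgery was a single-stage Fontan operation, which leads systemic venous blood to the lungs without a pumping ventricle. Libraries after surgery carried the letters D (day 6), E and F (both day 7), and libraries before surgery the letters A to E. No sham-operated group was used here, so surgery, anaesthesia, time and recovery cannot be told apart. The letters are read here as animals, which the labels do not state, so the p-values describe the spread among these libraries, part of which may be technical.

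These miRNAs form an old group of related families. miR-10a and miR-10b are encoded inside the HOX gene clusters, which pattern the body axis, and both are studied in blood vessels, miR-10a for restraining inflammatory signalling in endothelium. miR-99a, miR-99b and miR-100 share a seed, the stretch that pairs with target mRNAs, and are known to repress the growth kinase mTOR. miR-125a and miR-125b are the vertebrate counterparts of lin-4 of Caenorhabditis elegans, the founding miRNA, and act in blood stem cells and in myeloid and lymphoid development. In the sheep RefSeq annotation (assembly ARS-UI_Ramb_v3.0), genes for 4 of the 7 members were found by symbol. MIR10A overlapped HOXB3 and came next to HOXB4. MIR10B overlapped HOXD4, and MIR99A directly followed MIRLET7C, a let-7 gene.

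The values were whole-number counts per mature name that the authors deposited, and reads of sheep were named by human entries, since the submitters' processing notes give the build hg19. miR-10a-5p and miR-10b-5p differ at a central base, and miR-99a-5p and miR-100-5p are nearly as alike, so reads could pass between these names and each of them is uncertain on its own. Library totals ran from 65537 to 639207 counts, and a level is given as CPM, the count scaled to the library total, unless stated. The widest Wilson 95% interval of a member as a share of its library had a half-width of 0.0386 percentage points, for miR-125b-5p. As a part of the level, counting error is larger for names with few reads, such as miR-99b-5p with as few as 6. Intervals are for counting error alone and treat reads as independent. They are too narrow if PCR copies of a molecule were counted apart, which the sources used here do not state. In cell-free fluid, fewer releasing cells and less release per cell cannot be told apart. Serum of letter D after surgery stood apart for these names, with the lowest CPM of all 16 libraries for miR-10a-5p and miR-10b-5p. The fit without it is named for miR-125a-5p in EVs over serum after surgery. In other comparisons of serum it enters the ranges with each library left out. Names at 0 fell into sets of libraries with nearly the same zeros, so a 0 is reported as listed at 0, with no limit of detection attached.

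The miR-125 pair made up most of the families' reads. Over all libraries it held 80.8% of the 25149 counts of the 7 names, and its part of the sum was 64.1% to 87.8% in single libraries. The miR-10 names took 4.48% to 22.6% and the miR-99/100 names 3.57% to 17.4% of the sum. miR-125a-5p ranked from 22 to 166 and miR-125b-5p from 28 to 136 among all names of a library by count. The median ranks over the libraries were 196 for miR-10b-5p, 230 for miR-10a-5p, 359 for miR-99a-5p, 481 for miR-99b-5p and 562 for miR-100-5p. All of these are mature miRNAs of nearly equal length, so counts can be set side by side, apart from differences in how well each sequence enters a library.

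**Figure D1:**
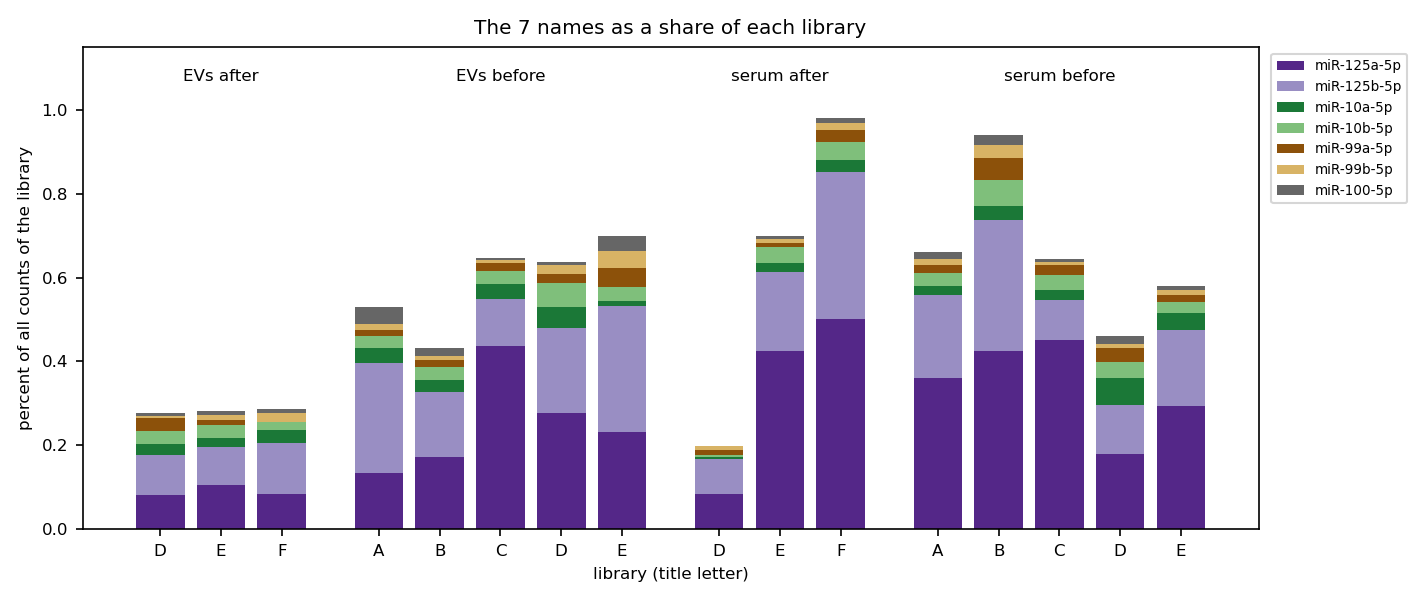
Stacked bars show the counts of the 7 names as percent of all counts in each of the 16 libraries, with title letters along the axis and groups written above. The 3 EV libraries after surgery stand at 0.276%, 0.282% and 0.287%, below every EV library before surgery (0.432% to 0.700%), and serum of letter D after surgery is the lowest bar at 0.198%. On TMM-scaled totals, not drawn, the EV groups overlap (0.144% to 0.386% after and 0.181% to 0.820% before surgery).

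The order of levels was alike in the 4 groups. Both miR-125 names stood above the other 5 in every group, and the lower of the pair exceeded miR-10b-5p without overlap of their ranges. miR-125a-5p had the higher mean than miR-125b-5p in EVs before surgery, serum after and serum before surgery, and the lower mean in EVs after surgery. Only in serum before surgery was that difference above the larger of the SDs, and there miR-125a-5p was the higher in 5 of 5 libraries. miR-10b-5p and miR-10a-5p came next in each group, with means apart by less than their SD in all 4. miR-99a-5p followed them in each group. miR-99b-5p and miR-100-5p were the lowest, in changing order, and no neighbours among the 5 lower names differed by more than their SD.

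miR-125a-5p, a miRNA studied in blood stem cells, was the most abundant member by counts over all 16 libraries, though not by mean CPM in EVs after surgery. Its level in EVs was 812, 1043 and 830 CPM after surgery in letters D to F, against 1341, 1709, 4372, 2772 and 2305 CPM before surgery in letters A to E. Its level in serum was 838, 4254 and 5013 CPM after surgery, against 3607, 4256, 4515, 1792 and 2927 CPM before surgery. In EVs all 3 libraries after surgery lay below all 5 before it. In serum the groups overlapped, and letter D was the lowest library at either time.

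miR-125b-5p, a close relative from separate genes, had 962, 918 and 1228 CPM in EVs after surgery, against 2622, 1556, 1128, 2013 and 3008 CPM before surgery. In EVs 2 of the 3 libraries after surgery lay below all 5 before it, and the one of letter F overlapped with letter C. In serum it had 830, 1872 and 3495 CPM after surgery, against 1968, 3126, 942, 1156 and 1829 CPM before surgery. Serum libraries overlapped widely, with the lowest and the highest value both after surgery.

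miR-10b-5p, encoded in the HOXD cluster, had 308, 306 and 205 CPM in EVs after surgery, against 265, 320, 321, 567 and 339 CPM before surgery. Its serum levels were 34.8, 373 and 431 CPM after surgery and 304, 622, 358, 377 and 250 CPM before surgery. The EV libraries overlapped, and serum of letter D after surgery held only 18 reads of it, far below the other 7 serum libraries. miR-10a-5p, from the HOXB cluster, ran from 206 to 302 CPM in EVs after surgery, from 129 to 520 CPM in EVs before surgery, from 54.1 to 294 CPM in serum after surgery and from 222 to 662 CPM in serum before surgery. The groups of miR-10a-5p overlapped in EVs and in serum.

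The miR-99/100 names rested on few reads. miR-99a-5p averaged 151 ± 159 CPM in EVs after surgery, 229 ± 124 CPM in EVs before surgery, 173 ± 110 CPM in serum after surgery and 292 ± 149 CPM in serum before surgery (SD, n = 3, 5, 3 and 5). It was listed at 0 in EVs of letter F after surgery. miR-99b-5p had 6 to 57 reads in EV libraries and 8 to 168 reads in serum libraries, with overlap in every comparison of CPM. miR-100-5p had 76.0, 106 and 86.2 CPM in EVs after surgery, against 412, 198, 56.4, 83.1 and 363 CPM before surgery. In serum it was listed at 0 in letter D after surgery, with 50.9 and 126 CPM in letters E and F, against 75.1 to 232 CPM before surgery. The 3 EV values after surgery lay within the range of those before it, and in serum the groups overlapped.

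**Figure D2:**
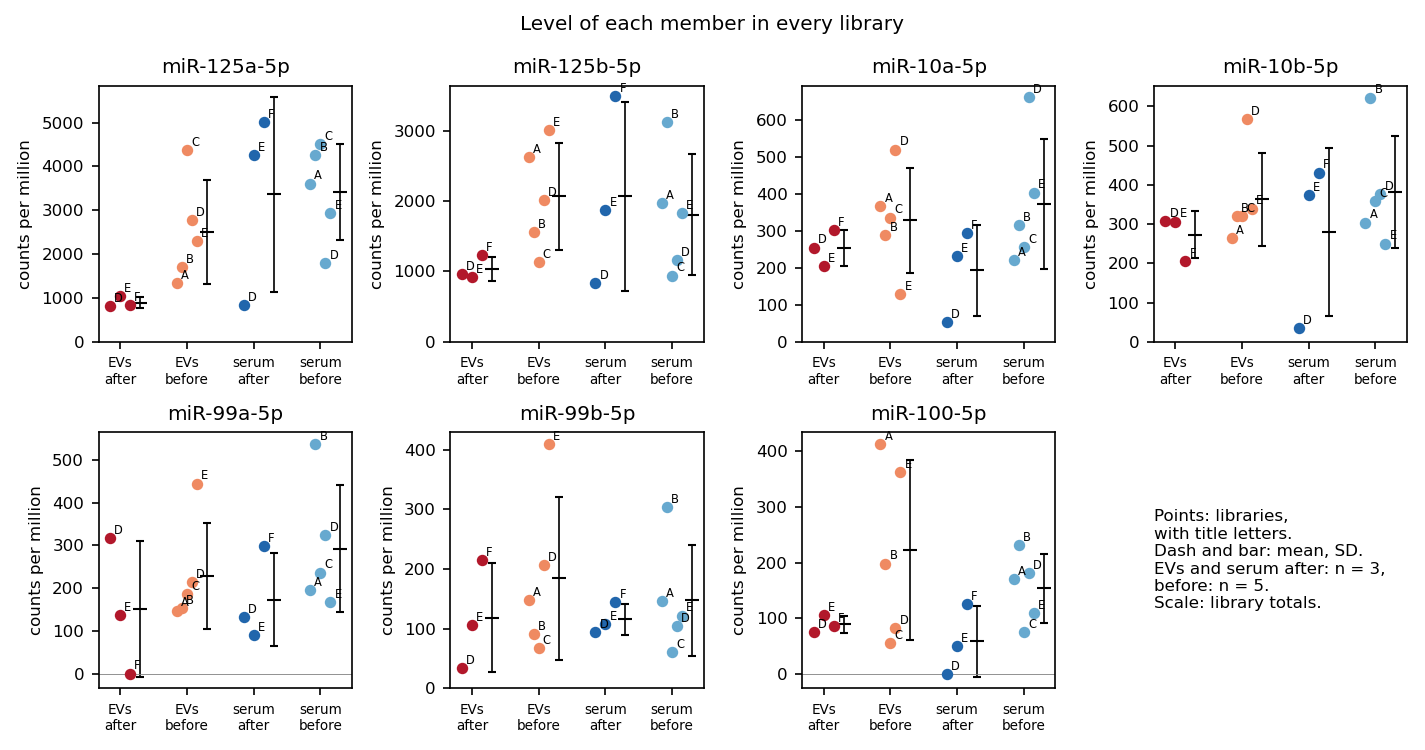
Each panel shows 1 of the 7 members, with CPM (counts scaled to the library total) on a linear axis, a point with its title letter for each library, and a dash with a bar for the mean and SD of each group (n = 3 after and n = 5 before surgery). For miR-125a-5p the 3 EV points after surgery (812 to 1043) lie under the 5 before surgery (1341 to 4372), while the groups of the other 6 members overlap.

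In EVs after against before surgery, no member passed the test. Each comparison was fitted over all names with edgeR's quasi-likelihood test, TMM scaling (a factor per library that sets the typical name equal) and Benjamini-Hochberg adjustment, with 0.05 as the threshold. Of the 856 names tested in EVs 0% were called, and all 7 members were tested. The fitted log2 fold change after over before surgery was −1.27 for miR-125a-5p (SE 0.888, adjusted p = 0.999, edgeR, n = 3 and 5). Those of the other 6 lay between −0.41 for miR-100-5p and 0.40 for miR-99a-5p, each with an adjusted p of 0.999. The median over the 7 was −0.30, beside −0.017 over all 856 names, and 5 of the 7 lay below 0, as did 51.5% of all names. At an unadjusted p under 0.05 stood 0 of the 7 members and 1.75% of all names.

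The gap of miR-125a-5p in EVs depended on the scale. On library totals its log2 fold change was −1.49 (unadjusted p = 0.0498, adjusted p = 0.994, edgeR), and all 7 members lay below 0, as did the median of all names at −0.55. The groups did not overlap for 1 of the 7 members on this scale, miR-125a-5p, where 1.99% of all names tested lay lower without overlap. On the TMM scale its EV libraries overlapped, with 416 to 1135 CPM after surgery and 456 to 5542 CPM before it, as did those of the other 6 members, where 1.05% of all names lay higher and 1.17% lower without overlap. Without EVs of letter C before surgery, the library with the highest level, the fitted value was −0.45 (adjusted p = 0.995, edgeR). It was −0.25 when libraries of like zeros were given a common term (adjusted p = 1.00, edgeR). That value rests on EVs of letters E and F after surgery against A, B and E before it. The other EV libraries each stood alone in a set and do not enter it.

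The summed share of the 7 names in EVs was 0.282% ± 0.00514 after surgery and 0.589% ± 0.107 before surgery (SD, n = 3 and 5). On TMM-scaled totals the means were 0.253% after and 0.394% before surgery, with SDs of 0.123 and 0.262. There the groups overlapped, with 0.144% to 0.386% after and 0.181% to 0.820% before surgery. Markers of other sources were summed in the same libraries. The 3 liver miRNAs miR-122-5p, miR-192-5p and miR-148a-3p together held 15.1%, 19.6% and 1.33% of counts in EVs after surgery in letters D to F, against 1.08% to 9.58% before surgery. The 7 red blood cell miRNAs held 20.8% to 28.8% of counts in EVs after surgery and 15.8% to 56.5% before it, with the highest value in letter C. The summed share of the members in these EVs was 0.276%, 0.282% and 0.287% in letters D to F. The part of liver and of red blood cell RNA in the difference was not tested.

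In serum after against before surgery, no member passed. Of the 696 names tested 0% were called. The CPM of the groups overlapped for all 7 members, where 0.431% of all names lay higher and 1.87% lower without overlap. Fitted log2 fold changes ran from −1.22 for miR-100-5p (SE 1.08) to 0.26 for miR-125b-5p (SE 0.816), with 6 of the 7 below 0, and every adjusted p was 0.968 (edgeR, n = 3 and 5). With each library left out in turn, miR-100-5p ran from −2.77 to −0.64 and miR-10b-5p from −1.19 to −0.039. The median over the members was −0.53, beside −0.20 over all names, of which 58.3% lay below 0. On library totals the medians were −0.48 for the members and −0.93 for all names, so the median of the members was below that of all names on the TMM scale and above it on library totals. At an unadjusted p under 0.05 stood 0 of the 7, and 7.76% of all names.

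Letters D and E were sampled at both times. In EVs 6 of the 7 members had a lower CPM after surgery in letter D and 6 of 7 in letter E. In serum it was 7 of 7 in letter D and 4 of 7 in letter E. These counts are on library totals. On that scale the median log2 fold change of all names between the groups was −0.55 in EVs and −0.93 in serum. How many of all names were lower within each letter was not counted. miR-125a-5p in EVs had a log2 ratio after over before surgery of −1.77 in letter D and −1.14 in letter E. In serum the ratio was −1.10 in letter D and 0.54 in letter E, so the letters went opposite ways there. With a pair of letters no test is given.

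EVs were then set against serum. Before surgery no member passed (adjusted p from 0.226 to 0.545, edgeR, n = 5 each), where 2.99% of the 768 names tested were called. All 7 members had a fitted log2 fold change of EVs over serum below 0, where 37.1% of all names did. The values ran from −1.76 for miR-99a-5p (SE 0.650) to −1.06 for miR-100-5p (SE 0.652), with a median of −1.29 beside 0.35 over all names. At an unadjusted p under 0.05 stood 2 of the 7, miR-99a-5p and miR-125b-5p, both lower in EVs, and 13.9% of all names, 7.29% on the lower side. On library totals 4 of the 7 lay below 0, the median of the members was −0.054 and that of all names 1.04. The sign of 3 members, miR-99b-5p, miR-100-5p and miR-125b-5p, turned between the scales, while the median of the members was below that of all names on both. The CPM of EVs and serum overlapped for all 7, where 5.99% of all names lay higher and 0.521% lower in EVs without overlap.

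After surgery the lowest values were those of the miR-125 pair. miR-125a-5p had a log2 fold change of EVs over serum of −2.73 (SE 0.802, adjusted p = 0.205, edgeR, n = 3 each), and miR-125b-5p of −1.90 (SE 0.707, adjusted p = 0.486). The other 5 ran from −1.29 for miR-99b-5p to −0.23 for miR-100-5p. All 7 lay below 0, as did 41.9% of the 747 names tested, and 0% were called. At an unadjusted p under 0.05 stood the 2 miR-125 names, both lower in EVs, and 8.03% of all names, 2.81% on the lower side. The CPM of the groups overlapped for all 7, where 32% of all names lay higher and 2.41% lower in EVs without overlap. On the TMM scale miR-99b-5p, miR-125a-5p and miR-125b-5p lay lower in EVs without overlap, with 416 to 1135 CPM in EVs and 1835 to 8198 CPM in serum for miR-125a-5p. On that scale 14.3% of all names lay higher and 7.63% lower in EVs without overlap. miR-10a-5p, miR-99b-5p and miR-100-5p were above 0 on library totals, at 0.42, 0.042 and 0.62. Each of these still lay below the median of all names on that scale. The median of the members was −0.72 on the TMM scale, beside 0.30 over all names. It was −0.0077 on library totals, again below that of all names. DESeq2 called miR-125a-5p (log2 fold change −2.67, adjusted p = 0.00844), and so did edgeR without serum of letter D after surgery (−3.13, adjusted p = 0.0321). In the same fits DESeq2 called 41 names, 5.65% of those with an adjusted p and 0.826% on the lower side, and edgeR without that library called 251 names, 29.8% of those tested and 1.19% on the lower side. Its adjusted p was 0.0740 without EVs of letter D and 0.188 to 0.468 under the other alternatives, and on library totals it had −1.89 (adjusted p = 0.269, edgeR). Red blood cell miRNAs were at 20.8% to 28.8% in these EVs and at 24.0%, 42.2% and 50.9% in serum of letters D to F, where miR-125a-5p was at 838, 4254 and 5013 CPM. The part of red blood cell RNA in this difference was not tested.

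The difference between EVs and serum was not shown to differ between the times. In the interaction over all 16 libraries, 0 of the 7 members passed and 0% of 1018 names were called. The fitted interaction (EVs over serum, after minus before surgery) ran from −0.89 for miR-125a-5p (SE 1.27) to 1.23 for miR-99a-5p (SE 1.42), and every adjusted p was 1.00 (edgeR). Of the 7, 2 lay below 0, as did 42.9% of all names. At an unadjusted p under 0.05 stood 0 of the 7 and 8.35% of all names.

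**Figure D3:**
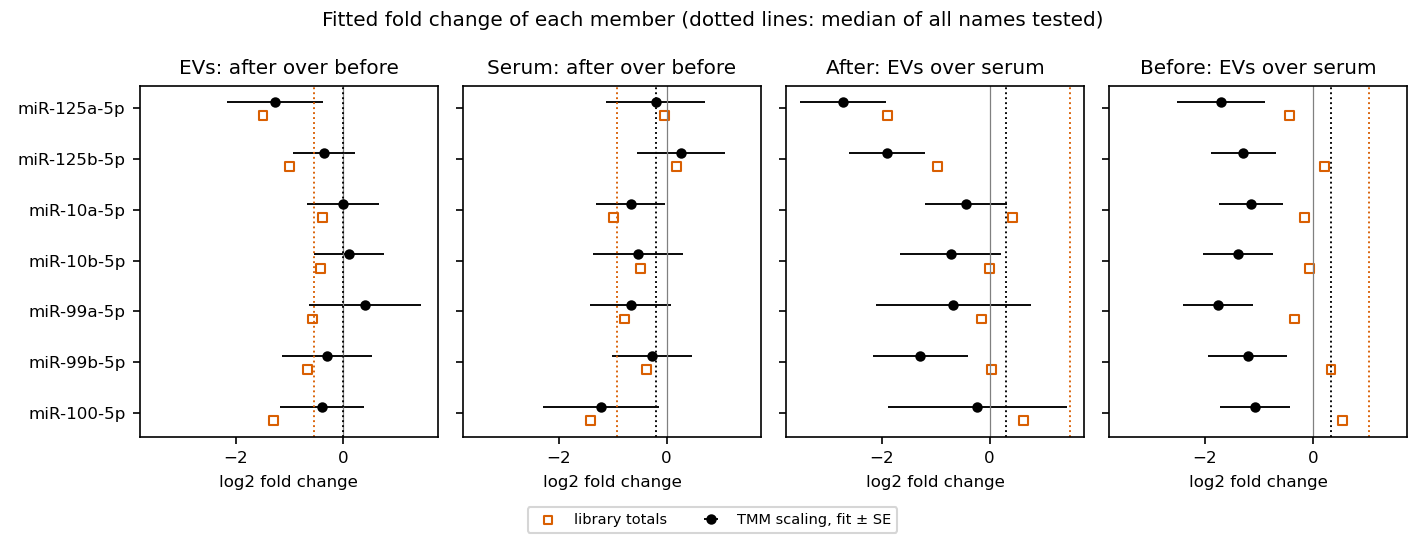
Each panel plots the fitted log2 fold change of the 7 members in 1 comparison, as filled points with SE under TMM scaling and open squares under library totals, with dotted lines at the median of all names tested in the same colours. Under TMM all 7 points of both panels of EVs over serum lie left of 0, with miR-125a-5p at −2.73 after surgery, while the squares lie on both sides of 0.

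Ratios of names within a library do not depend on the scale between libraries. miR-125a-5p took a smaller part of the reads of the miR-125 pair in EVs than in serum of the same letter and time in 8 of 8 such pairs. After surgery its part was 45.8%, 53.2% and 40.3% in EVs of letters D to F, against 50.2%, 69.4% and 58.9% in serum. Before surgery it was 33.8%, 52.3%, 79.5%, 57.9% and 43.4% in EVs of letters A to E, against 64.7%, 57.7%, 82.7%, 60.8% and 61.5% in serum. In 5 of the 8 pairs the Wilson 95% intervals of EVs and serum were apart, and they overlapped in letters B and D before and in letter D after surgery. The groups themselves overlapped at both times. EVs and serum were matched by title letter alone, and letters D and E enter at both times, so the 8 pairs are not independent. Over all names, deviations of EVs from their group were most like those of serum of their own letter in 1 of 5 pairs before surgery. After surgery this held in 1 of 3 pairs. The ratio of miR-125a-5p to miR-125b-5p was singled out after the values were seen. Among the 21 ratios between members it was the only one that went the same way in every pair, and no p is given for it.

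The miR-10 pair showed no such order. miR-10a-5p held 40.2% to 59.6% of the pair's reads in EVs after surgery, 27.5% to 58.1% in EVs before surgery, 38.3% to 60.9% in serum after surgery and 33.7% to 63.8% in serum before surgery. Its part was higher in EVs in 5 of 8 pairs and lower in 3, with intervals apart in 1.

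The strands of the miR-10b hairpin stood differently in EVs and in serum. miR-10b-3p, the strand usually discarded when the hairpin is processed, had more reads than miR-10b-5p in 7 of 8 EV libraries and in 2 of 8 serum libraries. Its part of the reads of both strands was 54.2%, 56.6% and 61.2% in EVs after surgery, against 72.3%, 21.4% and 15.7% in serum after surgery. Before surgery it was 84.9%, 44.7%, 56.6%, 53.3% and 60.8% in EVs of letters A to E, against 49.5%, 5.49%, 4.18%, 58.6% and 20.4% in serum. It was higher in EVs in 6 of 8 pairs, each with intervals apart, and lower in letter D at both times, with intervals apart after surgery. The fitted log2 fold change of miR-10b-3p over all names was 1.10 after surgery (SE 0.690, adjusted p = 0.717) and 1.25 before surgery (SE 0.648, adjusted p = 0.423), EVs over serum (edgeR, n = 3 each and 5 each). Beside these, the medians of all names tested were 0.30 after and 0.35 before surgery. On library totals the median of all names was 1.04 before surgery and higher after it. By CPM, 32% of all names lay higher in EVs without overlap after surgery, and 5.99% before it. Serum libraries held only 10 to 47 reads of miR-10b-3p. Whether the shift is particular to this hairpin was not tested. The name was among the list of passenger strands, and its ratio to miR-10b-5p was chosen for display after its values were seen.

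**Figure D4:**
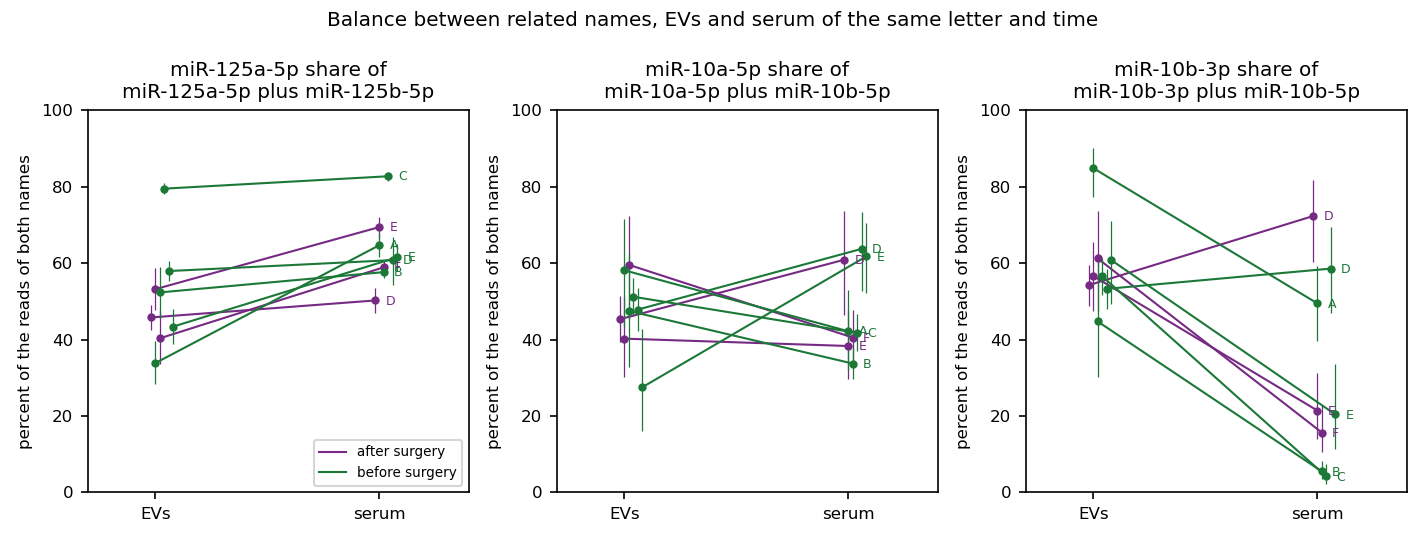
Each line joins EVs (left) and serum (right) of the same letter and time, in purple after and in green before surgery, and the axis gives the percent of the reads of both names that belong to the first, with Wilson 95% intervals as bars. All 8 lines of miR-125a-5p run upward to serum, the lines of miR-10a-5p cross, and 6 of 8 lines of miR-10b-3p run downward to serum.

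Genes that share a transcript or a cluster with the members were counted from lists. In the human genome let-7a, let-7c and let-7e each lie in a cluster with a miR-99/100 and a miR-125 gene, and 5 of the 6 names on that list were in the table. None passed in any comparison, and their median log2 fold change after over before surgery was 0.30 in EVs and 0.23 in serum. It was −0.56 after and −0.17 before surgery for EVs over serum. On library totals each of these signs turned, with −0.31 in EVs, −0.50 in serum, and 0.83 after and 1.06 before surgery for EVs over serum. Medians of all names on that scale were −0.55 in EVs, −0.93 in serum and 1.04 before surgery for EVs over serum. The let-7 median lay above that of all names in EVs and in serum. For EVs over serum it lay below that of all names after surgery and close to it before surgery. On the TMM scale it lay below all names at both times, with all names at 0.30 after and 0.35 before surgery. let-7a-5p was far more abundant than any member, with 16306 ± 9280 CPM in EVs after surgery, 15392 ± 6821 CPM in EVs before surgery, 11047 ± 6124 CPM in serum after surgery and 11964 ± 7661 CPM in serum before surgery (SD, n = 3, 5, 3 and 5), but it also comes from other genes. let-7e-5p, which shares a cluster with miR-99b and miR-125a, averaged 569.5 ± 460.2, 739 ± 551, 178 ± 105 and 357 ± 256 CPM in the same order of groups. Of the other miRNAs of the HOX clusters, all 6 listed names were present, 5 or 6 of them passed the filter on low counts in each comparison, and none passed the test. Their median log2 fold change after over before surgery was 0.38 in EVs and −0.49 in serum, and it was 0.62 after and 0.20 before surgery for EVs over serum. On library totals the sign in EVs turned, at −0.26, and the other medians were −0.82 in serum, and 1.62 after and 1.04 before surgery for EVs over serum. Against all names on that scale, the HOX-cluster medians were higher in EVs and in serum. For EVs over serum they were higher after surgery and nearly equal before surgery. The TMM scale gave another picture. There they were higher than all names in EVs (0.38 beside −0.017) but lower in serum (−0.49 beside −0.20). For EVs over serum they were higher after surgery (0.62 beside 0.30) and lower before it (0.20 beside 0.35). miR-196b-5p, from a HOX cluster, ran from 299.9 to 625 CPM in EVs after surgery, from 234 to 633 CPM in EVs before surgery, from 63.7 to 233 CPM in serum after surgery and from 86.8 to 430.3 CPM in serum before surgery. Over the 10 lists beside the members, 0 calls were made in the 5 comparisons (edgeR). The medians of the 7 marker lists of blood cells and tissues ran from −1.10 to 0.70 in EVs and from −1.44 to 0.61 in serum, after over before surgery, and on library totals from −1.40 to 0.30 in EVs and from −1.33 to 0.49 in serum. For EVs over serum they ran from −0.96 to 0.21 after and from −1.61 to 0.034 before surgery, and on library totals from −0.18 to 1.20 after and from −0.21 to 1.17 before surgery. All marker-list medians of EVs over serum after surgery lay below the median of all names on both scales. Before surgery this held on the TMM scale, while on library totals they lay on both sides of it.

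Names whose pattern was most like a member's were taken by Pearson's r of log2 CPM (TMM scale) over the 16 libraries, among 375 names above 0 in all of them, and r describes libraries that share scale and depth. miR-125a-5p was most like miR-486-5p (r = 0.918), miR-191-5p (0.910) and miR-92a-3p (0.909), where miR-486-5p and miR-92a-3p are abundant in red blood cells. miR-125b-5p was most like miR-125a-5p (0.887), miR-92a-3p (0.872) and miR-328-3p (0.862). miR-10a-5p was most like miR-660-5p (0.889), miR-10b-5p (0.872) and miR-425-5p (0.845). miR-10b-5p stood closest to miR-140-3p (0.886), miR-29a-3p (0.880) and miR-10a-5p. miR-99a-5p stood closest to miR-29c-3p (0.888), miR-361-5p (0.862) and miR-106b-3p (0.821). miR-99b-5p had miR-125b-5p (0.844), miR-92a-3p (0.764) and miR-28-3p (0.752) nearest to it. miR-100-5p, the member with the fewest reads, reached at most 0.706, with miR-21-5p, ahead of miR-10b-5p (0.672) and miR-769-5p (0.655). These values depended on the scale. On library totals miR-100-5p and miR-21-5p had an r of 0.819, miR-125a-5p and miR-486-5p 0.687, and the miR-125 pair 0.508. Between members r ran from 0.32 to 0.89 on this scale and from −0.037 to 0.71 on library totals.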

How the data were processed

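Small RNA was measured in 16 libraries. EVs of 70 to 1000 nm came from cleared serum (300 xg) over a size-exclusion column, and each QIAseq miRNA library used 1 ng of RNA, per the labels' protocols. The authors deposited raw counts per mature miRNA or piRNA name. Per the submitters' processing notes, bcl2fastq 2.20.0.422 and the build hg19 were used. How reads were aligned, filtered and counted, and whether UMIs were collapsed, is not given in the sources used here. Totals ran from 65537 to 639207 counts per library. Of 1105 rows, 4 shared 2 names, none of them members.

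Counts were fitted as deposited with edgeR 4.0.16 in R 4.3.3, on the groups compared (TMM, filterByExpr with a minimum count of 10, adjustment over all names tested). The fit was tried on simulated data. The simulated counts were independent, with a fixed spread and no sets of shared zeros. They therefore do not show how the fit behaves at the spread of these libraries. The SE is the fold change divided by the root of F. TMM factors ran from 0.278 to 2.94. Alternatives were RLE factors, library totals, DESeq2 1.42.0, no filter, a minimum count of 50, the title letter as a block, sets of shared zeros (phi above 0.8) as a term and each library left out. The named miRNAs were the members, the listed names and the 3 names most alike each member by r. Members and lists were chosen with earlier results of these data known.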

Additional observations from a re-analysis of the deposited data

Results flagged for a closer look

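Of 20 sets of 5 libraries screened for a library far from the others (7 members and 3 ratios, in EVs and in serum before surgery), 3 stood out, and chance gives about 1 in 20. miR-10b-5p was high in EVs of letter D before surgery at 567 CPM, where the other 4 libraries had 265 to 339 CPM. miR-99a-5p was high in EVs of letter E before surgery at 445 CPM, beside 147 to 213 CPM in the other 4, and this library held 38 reads of it. The log2 ratio of miR-125a-5p over miR-125b-5p was high in serum of letter C before surgery at 2.26, a ratio of 4.79, where the other 4 had ratios of 1.36 to 1.83. EVs of the same letter had a ratio of 3.88, the highest of all EV libraries, and the red blood cell miRNAs held 66.8% of counts in that serum and 56.5% in those EVs, the highest of each group. Their part in the ratio was not tested.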

How the results depend on the processing

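Of the values of members under alternatives, 495 kept direction and side of the threshold, 48 changed sign and 2 passed anew, both of miR-125a-5p for EVs over serum after surgery (DESeq2 −2.67, and −3.13 without serum of letter D, in a leave-one-out range of −3.13 to −2.26). The cause was not tested. Log2 fold changes are given below. In serum after against before surgery, signs turned with the replicate block for miR-99a-5p (0.13), miR-99b-5p (1.00) and miR-125a-5p (0.91), and with the shared zeros as a term for miR-125b-5p (−0.53). Only 1 set of shared zeros held serum of both times. The last value therefore rests on letters E and F after surgery against letter B before it. In EVs after against before surgery, miR-10a-5p had 0.032 with RLE factors, 0.030 with DESeq2, 0.72 with the replicate block and 0.56 with the shared zeros. miR-100-5p had 0.024 with the replicate block. miR-99a-5p had −0.87 and miR-99b-5p 0.14 with the shared zeros. On library totals, miR-10b-5p had −0.42 and miR-99a-5p −0.57 in that comparison. EVs over serum on library totals gave 0.34 for miR-99b-5p, 0.55 for miR-100-5p and 0.22 for miR-125b-5p before surgery, and 0.42 for miR-10a-5p, 0.042 for miR-99b-5p and 0.62 for miR-100-5p after it. With the replicate block miR-100-5p had 0.79 after surgery. The interaction of miR-99b-5p was −0.30 on library totals and −0.28 with the replicate block.

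Leaving out each library turned signs within these ranges: in serum after against before surgery −0.77 to 0.29 for miR-125a-5p, −0.47 to 0.77 for miR-125b-5p and −0.74 to 0.48 for miR-99b-5p; in EVs −0.53 to 0.30 for miR-10a-5p, −0.47 to 0.48 for miR-10b-5p and −1.31 to 0.98 for miR-99a-5p. For EVs over serum after surgery they were −0.93 to 0.052 for miR-10a-5p and −0.80 to 1.19 for miR-100-5p, and for the interaction −0.54 to 1.81 for miR-99a-5p, −0.65 to 0.36 for miR-99b-5p and −0.97 to 0.15 for miR-125b-5p.

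Counts of names called moved as well. In serum 2 were called with no filter, against 0. For EVs over serum before surgery 23 were called, against 54 with DESeq2, 56 with no filter, 0 with a minimum count of 50, 0 with the replicate block and 26 to 89 with a library left out. After surgery 41 were called with DESeq2 and 0 to 251 with a library left out, the highest without serum of letter D. The interaction had 5 with DESeq2 and 0 to 6 with a library left out. The summed share on TMM-scaled totals was 0.253% in EVs after, 0.394% in EVs before, 0.999% in serum after and 1.25% in serum before surgery, against 0.282%, 0.589%, 0.625% and 0.657% on library totals. Of the 21 most alike names, 12 were shared on library totals.

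The replicate block used the title letters. The r between deviations of same-lettered libraries was −0.31 to 0.69 over the 5 pairs of EVs and serum before surgery and −0.18 to 0.13 over the 3 after it, with 1 best with its own letter in each. After against before surgery, letters D and E had 0.19 and 0.12 in serum, both best with their own letter, and 0.42 and 0.13 in EVs, the one of letter E best. Positive r in 2 pairs each falls short of the 3 pairs asked for, so the letters were not taken as pairs in the main fits. Shares within libraries were still set side by side by letter, and so were the levels of letters D and E. No member was called in the main fits, and none was called with the block. After against before surgery the block rests on letters D and E alone, since the other letters occur at 1 time only. With a minimum count of 50, members that fell under it gave no value, and a term for shared zeros could not be fitted between EVs and serum, since no set held both. Few reads limit miR-99b-5p and miR-100-5p most, with 6 to 168 and 0 to 128 per library.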

Other observations

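Of the 8 passenger strands on the list, 5 were in the table, and those other than miR-10b-3p were mostly listed at 0 in EVs. miR-99b-3p had 138 reads in EVs of letter C and 6 in letter D before surgery and was listed at 0 in the other 6 EV libraries, while all 8 serum libraries held 3 to 38 reads. miR-125b-2-3p had 129 reads in EVs of letter D and 18 in letter C before surgery and was likewise listed at 0 in the other 6, and serum held 0 to 41 reads. miR-99a-3p was above 0 in EVs of letters C and D before surgery and D after surgery alone, with 82 to 92 reads, and miR-125a-3p was above 0 in the same 3 EV libraries, with 29 to 75 reads. The 5 EV libraries at 0 for all 4 of these names are those that shared 292 zeros, so presence of these strands moved with the pattern of zeros. In the interaction miR-99b-3p had an unadjusted p of 0.0421 and an adjusted p of 0.591 (edgeR), and no fold is given for names listed at 0 in a whole group.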
